A study of Mus musculus with 21 samples.

Results

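The stretch of mouse chromosome 11 described here runs from 32.132 to 32.169 Mb in mm9 and was taken to hold the gene Nprl3 with the alpha-globin enhancers. Its members were the positions of the deposited profiles whose coordinate fell in that range. There were 188 of them among 1855 positions in 5 circular chromosome conformation capture (4C-seq) libraries, 38 in each of 3 libraries and 37 in each of the other two. The profiles step by 1000 bp, and the whole series holds 21 libraries.

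4C-seq reads how often other parts of a chromosome are ligated to a chosen fragment, the viewpoint, in fixed nuclei. All 5 libraries came from C57BL/6 embryos at 14.5 dpc, fixed with 2% formaldehyde for 10 minutes and cut with DpnII and then Csp6I. With the Hba-a1 promoter as viewpoint there was 1 library from fetal liver, 1 from fetal liver made with 1/16 of the PCR template, and 1 from fetal brain. With HS-26 as viewpoint there was 1 library from fetal liver and 1 from fetal brain. Livers or brains of 10 to 12 embryos were pooled, so each group was 1 pooled library. No group had a replicate, no test between tissues was possible, and no p-value is given. The only technical yardstick is the full and 1/16 template pair of the Hba-a1 promoter. Each value is an average over all cells of a tissue, so a contact present in more cells and a contact made more often per cell cannot be told apart.

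Nprl3 encodes a subunit of GATOR1, a complex that restrains mTORC1 when amino acids are scarce, and it is expressed in many tissues. It is best known at this locus because its introns hold the distal enhancers of the alpha-globin genes: the hypersensitive sites HS-31, HS-26 (the major enhancer), HS-21 and HS-12. HS-8 lies between the Nprl3 promoter and the globin genes. In erythroid cells these sites are open and bound by erythroid factors such as GATA1. Mid-gestation fetal liver is rich in erythroid cells, whereas fetal brain keeps the alpha-globin genes silent. In RefSeq order the neighbours are Snrnp25, Rhbdf1, Mpg, Nprl3, Hba-x and Hba-a1. Nprl3 is read on the minus strand, so its promoter is at the end that faces the globin genes and lower coordinates lie toward its 3′ end. The labels give no coordinates for the elements. HS-26 was placed at the maximum of its own 5 kb profiles, 32149000. The others were placed by the distance in kb in their names, which put HS-31 at 32144000, HS-21 at 32154000, HS-12 at 32163000 and HS-8 at 32167000. At 5 kb brain had an equal value at 32150000. At 2 kb the HS-26 maximum was shared by 32149000 and 32150000 in brain and by 32150000 and 32151000 in liver. This placement is therefore uncertain by at least 1 kb.

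The promoter of Nprl3 and that of Hba-a1, whose fragment was a viewpoint, are shown because they are the gene ends between which these contacts were read, and because restriction sites set the resolution of 4C-seq. Both come from RefSeq (GRCm38.p6, a later build than that of the profiles, so these coordinates cannot be set against the mm9 ones). They are the 250 bases before the gene start, at chr11:32267708-32267957 on the minus strand for Nprl3 and chr11:32283422-32283671 on the plus strand for Hba-a1. Capitals mark matches on either strand to GATC (the DpnII site), GTAC (the Csp6I site), GATAA (the core of a GATA factor motif) or CACCC (the core of a CACCC box). No marked matches overlap.
Nprl3 promoter: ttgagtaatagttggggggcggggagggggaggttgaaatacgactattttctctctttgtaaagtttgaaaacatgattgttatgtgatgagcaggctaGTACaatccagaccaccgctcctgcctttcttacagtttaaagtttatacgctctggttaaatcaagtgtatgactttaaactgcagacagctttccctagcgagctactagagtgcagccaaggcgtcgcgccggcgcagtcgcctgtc
Hba-a1 promoter: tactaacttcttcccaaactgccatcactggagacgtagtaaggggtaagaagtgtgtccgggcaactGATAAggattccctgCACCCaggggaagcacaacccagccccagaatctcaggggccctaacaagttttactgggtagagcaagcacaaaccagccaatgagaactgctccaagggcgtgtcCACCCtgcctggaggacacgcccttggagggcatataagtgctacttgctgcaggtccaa
The Nprl3 window held 1 GTAC and no match to the other motifs. The Hba-a1 window held 1 GATAA and 2 CACCC matches, and neither restriction site. Among 32851 promoter windows of the same length, 41.9% held GATC, 31.5% GTAC, 22.6% GATAA and 52.0% CACCC, so none of these matches is rare. A match is only a run of letters, and its absence from this window says nothing about a factor.

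From the Hba-a1 promoter, Nprl3 held most of the far-reaching signal in fetal liver and much less of it in fetal brain. Values are given as relative signal, the deposited middle value in the authors' 5 kb running window divided by the mean of the same library beyond 10 kb of its viewpoint, so that 1 is the library's average. The Hba-a1 viewpoint was placed at 32184894, the median of its libraries' own 5 kb maxima. These were at 32184000 in liver, 32187894 in the 1/16 template library and 32184894 in brain. Averaged over the Nprl3 region, relative signal was 6.95 ± 5.45 (SD over 38 positions) in liver, 5.24 ± 3.25 (37 positions) in the 1/16 template library and 2.44 ± 1.00 (37 positions) in brain. This SD describes how uneven the region is, not an experimental error. The order was liver, then 1/16 template, then brain. It was the same in the 2 kb window, with means of 7.03, 5.53 and 2.63. These means count empty positions as 0, 2 of 38 in liver and 7 of 37 in each of the others. Without positions empty in either library, the log2 ratio of means fell from 1.45 to 1.24 for liver over brain. For full over 1/16 template it fell from 0.38 to 0.17. Without rescaling, the deposited means were 0.288, 0.236 and 0.0701.

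The region covered 11.7% of the liver positions beyond 10 kb and held 81.0% of their summed signal. In the 1/16 template library 9.81% of positions held 51.5%, and in brain the same share of positions held 24.0%. Full-template liver also stood apart outside Nprl3, with 21.2% of its positions beyond 10 kb empty (a middle value under 1e-09), against 0.796% in the 1/16 template library and 0.531% in brain. The part of these empty positions in its share, and in the shares of the whole profile given below, was not tested. The libraries span unlike ranges, 351 positions in full-template liver and 401 in the other two. The gap between both liver libraries in this share was as wide as that between the 1/16 template library and brain. Outside the region the mean was 0.215 in liver, 0.538 in the 1/16 template library and 0.843 in brain. Of the 20 highest positions beyond 10 kb, 20 lay in the region in liver, 18 in the 1/16 template library and 6 in brain. The highest position outside Nprl3 reached 6.54 in brain, at 32.174 Mb, and 7 outside positions there exceeded the region's own maximum of 4.77, whereas none did in either liver library.

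The middle values come with a higher and a lower deposited column, at quantile levels that no source used here states. In liver the region's mean was 20.1 by the higher column and 1.51 by the lower one. The 1/16 template library gave 15.2 and 1.29, and brain 4.94 and 0.924. The columns thus lie far apart within each window, by a median of 17.7-fold in liver and 5.60-fold in brain.

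**Figure D1:**
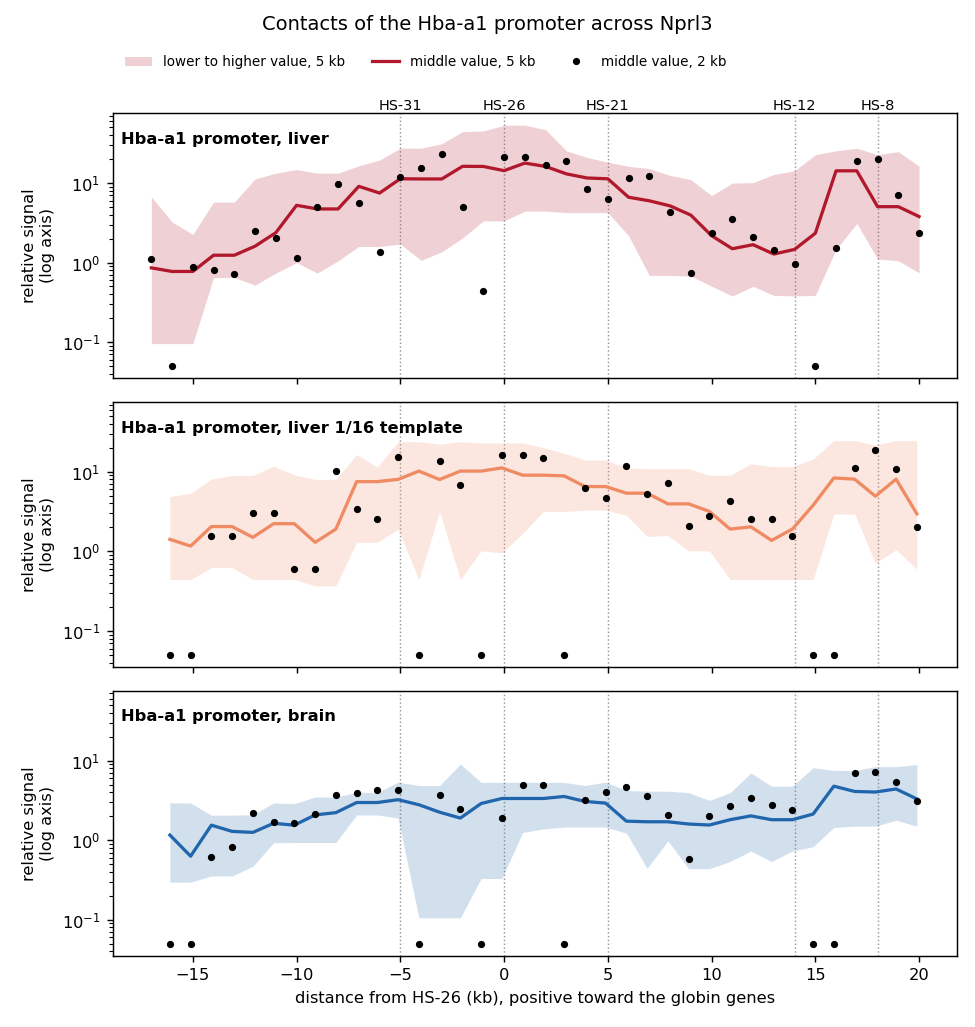
Relative signal of the Hba-a1 promoter (log axis, 1 is the library mean beyond 10 kb) against distance from HS-26 in kb, 1 panel per library. Lines are the middle value and shading the span from the lower to the higher value of the 5 kb window, dots are the middle value of the 2 kb window, and values under 0.05 are drawn at 0.05. Liver has a broad rise around HS-26 that reaches 17.8 and a separate one at HS-8, while brain stays at or below 4.77, all at 5 kb. The 2 kb dots reach 22.9 in liver and 7.17 in brain.

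Inside Nprl3 the liver signal formed a broad plateau from about HS-31 to HS-21, a valley at HS-12, and a separate narrow rise at HS-8. In full-template liver the lowest position was 0.772 at 32.133 Mb and the highest 17.8 at 32.150 Mb. The 1/16 template library ran from 1.17 at 32.134 Mb to 11.2 at 32.149 Mb. Brain ran from 0.630 at 32.134 Mb to 4.77 at 32.165 Mb, so that at 5 kb its maximum lay on the HS-8 side and that of both liver libraries at HS-26. At 2 kb this contrast did not hold, since the maximum was at 32.167 Mb in brain (7.17) and in the 1/16 template library (19.0), and at 32.146 Mb in full-template liver (22.9). Ratios within a library show the same contrast free of any scaling between libraries. The mean from 32.140 to 32.158 Mb was 5.91 times that of the 3′ end (32.132 to 32.139 Mb) in liver, 4.11 times in the 1/16 template library and 2.04 times in brain. Against the valley from 32.159 to 32.164 Mb it was 6.00, 3.37 and 1.38 times. These bounds were drawn after the profiles were seen.

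Position by position, liver exceeded brain mainly around the intronic sites HS-31, HS-26 and HS-21, and not at HS-12. The ratio of mean relative signals over the 37 matched positions was 2.91 (log2 1.54), with 30 positions higher in liver and 7 higher in brain. At 22 of 37 positions the relative signal was at least 2-fold higher in liver, and the share of all 326 positions beyond 10 kb past the same fold was 7.36%. These positions were a run from 32.139 to 32.158 Mb, which covers HS-31, HS-26 and HS-21, and a pair at 32.165 and 32.166 Mb just before HS-8. None of the 37 was 2-fold lower in liver, against 80.4% of the profile. Over the whole profile the median log2 ratio was −1.94, in libraries each scaled to its own mean. Neighbouring positions share most of a 5 kb window, so these counts are not counts of independent contacts.

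The 1/16 template library gave the same direction. It exceeded brain 2.15-fold (log2 1.10), and 17 of 37 positions were 2-fold higher against 6.90% of its profile. None was 2-fold lower, against 23.6%. These 17 ran from 32.142 to 32.158 Mb and included no position near HS-8. Full-template liver exceeded the 1/16 template library itself 1.36-fold (log2 0.44). There 3 of 37 positions were 2-fold higher, from 32.139 to 32.141 Mb, against 1.84% of the profile, and none was 2-fold lower, against 67.5%. The SD of the log2 ratio of this technical pair over the region was 0.62. That SD is a spread of single positions in 1 technical pair, so it gives no error for the region means and no test of the tissue difference.

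The largest liver excess was at 32.147 Mb, 2 kb from HS-26, where relative signal was 16.2 in liver, 10.2 in the 1/16 template library and 1.90 in brain. This was 8.15-fold for full template and 5.16-fold for 1/16 template. The largest difference the other way was small, 1.45-fold at 32.133 Mb, with 0.772 in liver and 1.16 in brain. In the 2 kb window 18 of 37 positions were 2-fold higher in liver, against 7.90% of the profile. These included 32.134, 32.145, 32.148, 32.152 and 32.165 Mb, which were empty in brain. Ratios at such positions are set by the constant added to each signal, so they give no measured fold. As a stricter reading, liver's lower column was set against brain's higher column. At 5 kb the first exceeded the second at 0 of 37 positions, against 0.613% of the profile. At 2 kb it did so at 7 of 37, against 5.17%. These 7 included the same positions empty in brain, where brain's higher column was 0 and any liver value passes. Both bands were filled only at 32.141 Mb (4.77 in liver against 4.60 in brain) and 32.151 Mb (9.51 against 7.02).

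**Figure D2:**
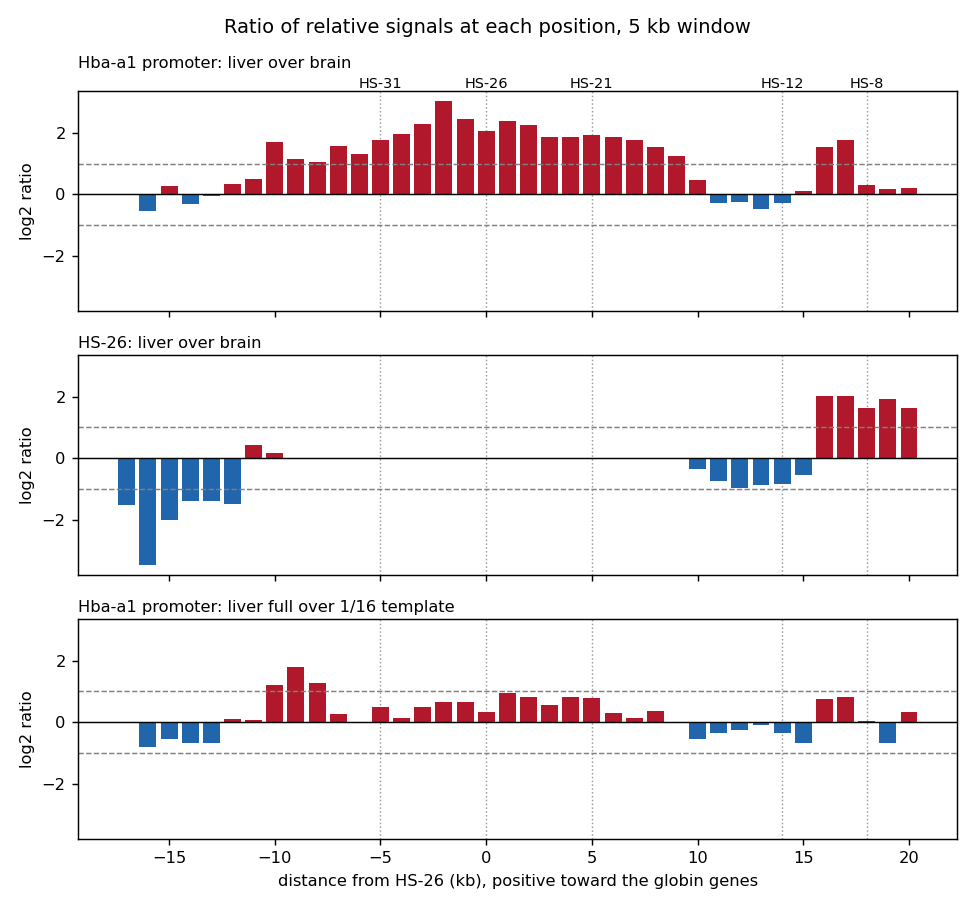
Log2 ratio of relative signals (each plus 0.1) at each position of the 5 kb window against distance from HS-26 in kb, red above 0 and blue below, with dashed lines at 2-fold. The upper panel shows 22 of 37 positions past 2-fold for the Hba-a1 promoter, the middle one both directions from HS-26, where positions within 10 kb are left out, and the lower one the technical pair, with 3 of 37.

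The 5 elements were then compared one by one, each as the mean of the 3 positions within 1.5 kb of its centre. Observed over expected (O/E) divides that mean by the value at the same distances in a monotone decay fitted to both sides of the viewpoint in the same library, after adding 0.1 to each. The decay takes in the raised positions themselves, so O/E understates a broad rise. At 5 kb the fitted decay was flat over all 5 elements in both liver libraries of the Hba-a1 promoter. It was 4.27 in full-template liver and 3.53 in the 1/16 template library. From HS-26 in liver it was likewise equal at HS-12 and HS-8, at 5.71. There O/E only follows relative signal and makes no correction for distance between elements.

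HS-26, the major enhancer, was the highest element from the Hba-a1 promoter in both liver libraries at 5 kb. Its relative signal was 16.0 in liver, 10.2 in the 1/16 template library and 3.19 in brain. Liver was 5.02-fold above brain, the widest gap of the 5 elements, and the 1/16 template library was 3.18-fold above it. Its 3 positions ran from 14.3 to 17.8 in liver, 9.06 to 11.2 in the 1/16 template library and 2.89 to 3.34 in brain. They share most of a 5 kb window and are not replicates. At 2 kb the ranges overlapped, with 0.435 to 21.1 in liver, 0 to 16.2 in the 1/16 template library and 0 to 4.92 in brain. O/E of HS-26 at 5 kb was 3.70, 2.83 and 1.42.

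HS-31, the farthest intronic site from the globin genes, had 9.98 in liver, 8.58 in the 1/16 template library and 3.00 in brain. Liver was 3.33-fold above brain, and the technical pair differed 1.16-fold. HS-21, on the globin side of HS-26, had 9.81, 6.14 and 2.58. Liver was 3.81-fold above brain and the 1/16 template library 2.38-fold. At 2 kb the 3 positions of HS-31 overlapped between tissues, with 1.36 to 15.2 in liver and 0 to 4.23 in brain. Those of HS-21 ran from 6.37 to 11.4 in liver and from 3.20 to 4.67 in brain. O/E at 5 kb in liver was 2.31 at HS-31 and 2.27 at HS-21, and in brain 1.36 and 1.15. With the decay fitted to the Nprl3 side alone, the liver minus brain differences in log2 O/E shrank from 0.77 to 0.12 at HS-31, from 1.38 to 0.71 at HS-26 and from 0.98 to 0.30 at HS-21. By the same change the difference at HS-8 went from 0.55 to 0.0047 and that at HS-12 from −0.82 to −1.76.

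HS-12, the intronic site nearest the Nprl3 promoter, was the lowest element from the Hba-a1 promoter in all 3 libraries and in both windows. Its relative signal was 1.69 in liver, 2.36 in the 1/16 template library and 1.92 in brain, so the tissues were close and the liver libraries lay on either side of brain. In the 2 kb window both liver libraries were lower than brain, with 0.794 and 1.37 against 1.73. Each of these 2 kb means counts 1 empty position of the 3 as 0. Its O/E was below 1 in each, at 0.410, 0.677 and 0.724. In the liver libraries this is no separate sign of a dip, because the raised neighbours enter the flat fitted value. HS-12 lies closer to the Hba-a1 promoter than the 3 other intronic sites. In liver HS-26 had 9.49 times the signal of HS-12, in the 1/16 template library 4.31 times and in brain 1.67 times.

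HS-8, between Nprl3 and the globin genes, was above the library average from the Hba-a1 promoter in all 3 libraries. It is also the element nearest that viewpoint. With the decay fitted to the Nprl3 side alone, its O/E at 5 kb was 1.07 in liver, 1.24 in the 1/16 template library and 1.06 in brain. The relative signal of HS-8 was 8.08 in liver, 7.03 in the 1/16 template library and 4.18 in brain. Liver was 1.94-fold above brain and the 1/16 template library 1.68-fold. In brain HS-8 was the highest of the 5 elements. HS-26 had 1.98 times the signal of HS-8 in liver and 1.44 times in the 1/16 template library, but 0.764 times in brain. In the 2 kb window HS-8 led in all 3 libraries, with 15.2, 13.7 and 6.49, and HS-26 stood at 0.936 times HS-8 in liver and 0.350 times in brain. The HS-26 means of the 1/16 template library and brain there count 1 empty position of the 3 as 0. The place of HS-26 above HS-8 in liver therefore holds only in the wider window, whereas its place relative to HS-8 was lower in brain than in liver in both.

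The values at HS-12 and HS-8 turn on where their windows end. The signal of full-template liver went from 2.33 at 32.164 Mb to 14.2 at 32.165 Mb, the steepest step of the region. Moving the windows 1 kb toward the globin genes turned the liver minus brain difference in log2 O/E from −0.82 to 0.48 at HS-12 and from 0.55 to −0.15 at HS-8. Placing HS-26 at 32150000, a 2 kb maximum in both tissues, would move them in this way. A valley at HS-12 and a rise at HS-8 thus hold only for the placement used here. No mm9 position of the Nprl3 promoter was available, so a rise at HS-8 cannot be told apart from one at that promoter.

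**Figure D3:**
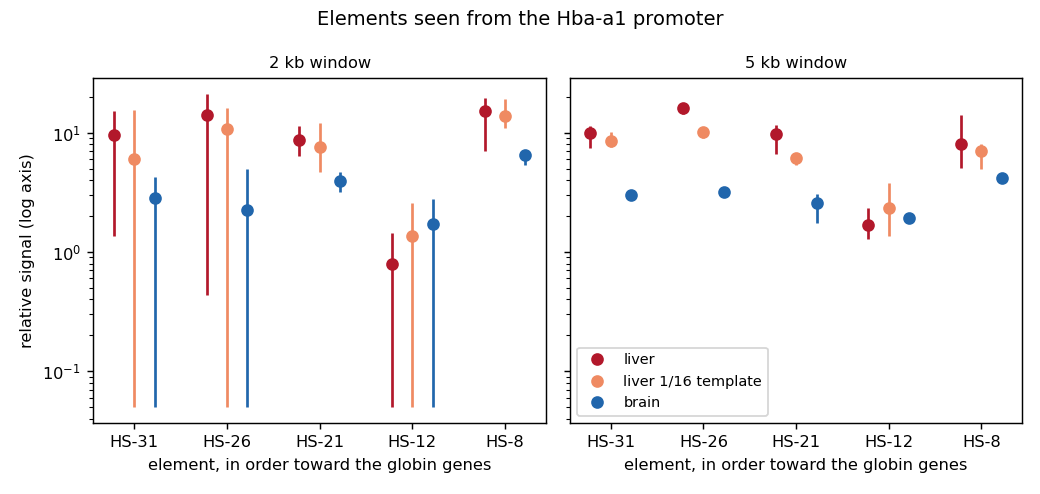
Relative signal (log axis) of the 5 elements from the Hba-a1 promoter in the 2 kb and 5 kb windows. Points are means of the 3 positions within 1.5 kb of the element and bars run from the lowest to the highest of them, with empty positions drawn at 0.05. Liver lies above brain at HS-31, HS-26, HS-21 and HS-8 in both windows, and HS-12 is the lowest element in each library.

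Seen from HS-26, the signal inside Nprl3 leaned toward the globin genes in liver and was nearly even in brain. Only the 19 positions at 10 kb or more from HS-26 were used, 8 toward the 3′ end and 11 toward the globin genes. At 10 to 17 kb from HS-26, liver had a mean of 2.65 (0.202 to 6.85) on the 3′ side and 7.25 (2.51 to 19.4) on the globin side, a ratio of 2.74. Brain had 4.51 (2.79 to 6.12) and 5.07 (4.66 to 6.13), a ratio of 1.13. The sides overlapped in both tissues.

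The HS-8 end was the high part of the globin side. From HS-26 the relative signal of HS-8 was 17.0 in liver and 4.56 in brain, a ratio of 3.72. Its 3 positions ran from 14.04 to 19.4 in liver and from 4.50 to 4.66 in brain. HS-12 had 2.76 in liver and 4.69 in brain. Within liver HS-8 had 6.14 times the signal of HS-12, and within brain 0.973 times. At 2 kb HS-8 was above HS-12 in both tissues, 17.4 times in liver and 1.91 times in brain. These ratios count 1 empty position of the 3 at HS-12 as 0. Its filled positions had 3.05 and 2.42 in liver and 6.25 and 4.34 in brain, against HS-8 means of 31.8 and 6.75. From HS-26 as from the Hba-a1 promoter, liver thus had a valley at HS-12 and a rise at HS-8. O/E of HS-8 from HS-26 was 2.94 in liver and 1.024 in brain at 5 kb, and 4.54 and 1.55 at 2 kb.

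Over all 19 positions the tissues did not differ in 1 direction. The mean was 6.30 ± 6.47 (SD over positions) in liver and 4.66 ± 0.969 in brain, a ratio of 1.35. The liver range, 0.202 at 32.133 Mb to 19.4 at 32.165 Mb, enclosed the brain range, 2.79 at 32.134 Mb to 6.13 at 32.159 Mb. Relative signal was higher in liver at 7 positions and in brain at 12, with a median log2 ratio of −0.73. At least 2-fold higher in liver were 5 of 19, all from 32.165 to 32.169 Mb, against 4.28% of the profile. At least 2-fold lower were 6 of 19, all from 32.132 to 32.137 Mb, against 48.3%, so the lower positions are no more frequent than in the profile as a whole.

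The largest ratio in each direction fell at these ends. At 32.165 Mb relative signal was 19.4 in liver and 4.66 in brain, 4.10-fold. At 32.133 Mb it was 0.202 in liver and 3.21 in brain, 10.98-fold higher in brain. In the 2 kb window 3 of 19 positions were 2-fold higher in liver, against 3.64%, with the largest ratio at HS-8 itself, 52.3 in liver and 9.02 in brain. All of these ratios depend on the scaling between libraries. On the deposited scale the liver mean was 0.0300 and the brain mean 0.0769, and 0 of 19 positions were 2-fold higher in liver. The ratios between HS-8 and HS-12 and between the sides do not depend on it.

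**Figure D4:**
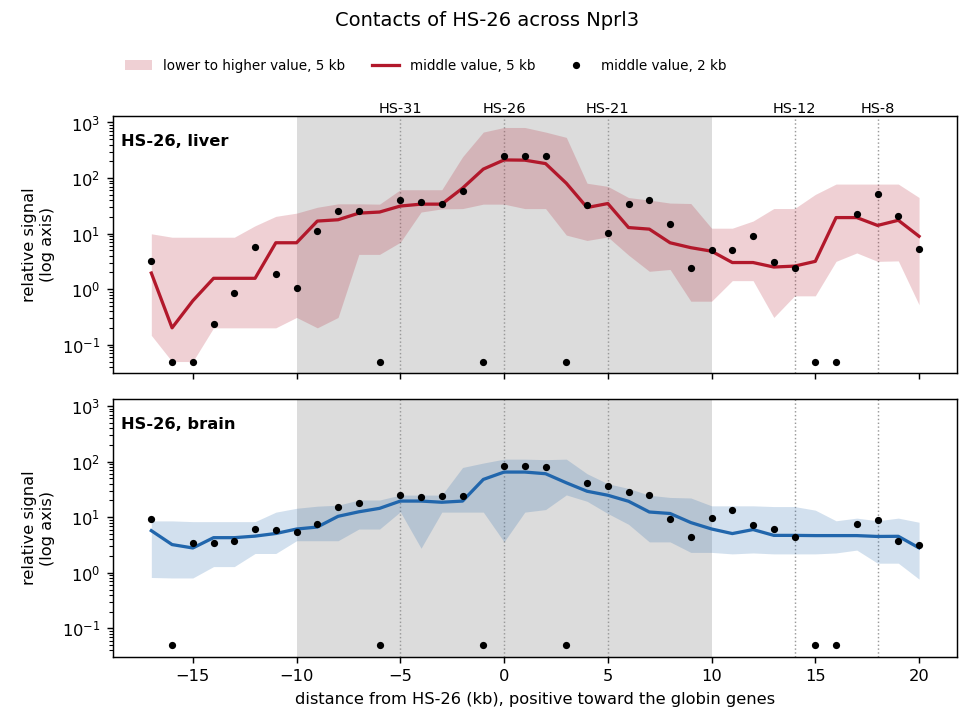
Relative signal of HS-26 (log axis) against distance from HS-26 in kb, drawn as for the Hba-a1 promoter, with the positions within 10 kb of the viewpoint in grey. Liver rises to 19.4 before HS-8 and falls to 0.202 at the 3′ end, while brain stays between 2.79 and 6.13 outside the grey part, all at 5 kb. The 2 kb dots there run from 0 to 52.3 in liver and from 0 to 13.2 in brain.

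The side of the Hba-a1 promoter away from Nprl3 gave a comparison within each library, matched in distance alone. At the same distances, 15.9 to 52.9 kb, that side spans 32.201 to 32.238 Mb. These distances rest on a viewpoint at 32184894, though the 1/16 template library's own maximum was at 32187894. The Nprl3 side had 6.95 and the other side 0.457 in liver, a ratio of 15.2. The part of full-template liver's empty positions in this ratio was not tested. In the 1/16 template library the values were 5.24 and 0.889, a ratio of 5.90. In brain they were 2.44 and 1.91, a ratio of 1.28. The lean toward Nprl3 was wide in both liver libraries and small in brain, where it reversed in the higher column (log2 −0.032).

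**Figure D5:**
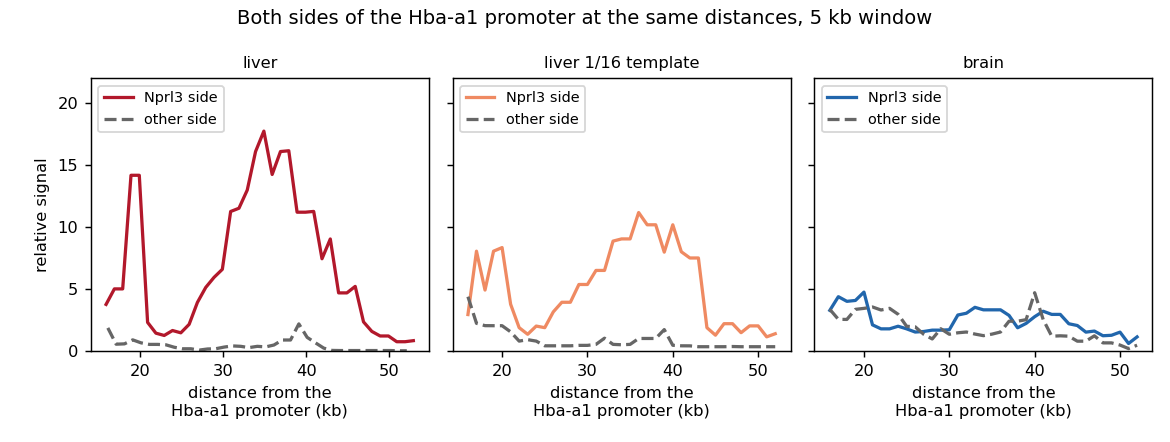
Relative signal of the 5 kb window against distance from the Hba-a1 promoter in kb, on the Nprl3 side (solid) and on the other side (dashed), 1 panel per Hba-a1 library. The means of both sides differ 15.2-fold in liver and 1.28-fold in brain.

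At 2 kb several peaks inside Nprl3 recurred at nearly the same places in both tissues and from both viewpoints. A peak at 32.167 Mb, inside the HS-8 window, was found in all 5 libraries. From the Hba-a1 promoter it had 19.7 in liver, 19.0 in the 1/16 template library and 7.17 in brain. It rose beyond a position at 32.164 Mb that was empty in all 5. A peak at 32.149 or 32.150 Mb, over HS-26, had 21.1, 16.2 and 4.92 from the Hba-a1 promoter. From HS-26 this place is the viewpoint itself, so no recurrence can be read there. A peak at 32.155 or 32.156 Mb had 12.2, 12.0 and 4.67 from the Hba-a1 promoter. One at 32.160 or 32.161 Mb, between HS-21 and HS-12, had only 3.52, 4.29 and 3.38, and one at 32.137 Mb, near the 3′ end, had 2.503, 3.00 and 2.21. At 32.160 or 32.161 Mb and at 32.137 Mb the tissues were close, in contrast to the other peaks named here.

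Correlations over positions describe how alike the profiles were, with no test, since windows overlap. All libraries share the restriction sites and all profiles decay from their viewpoint. At 5 kb the log2 signals of both liver libraries of the Hba-a1 promoter had r = 0.901 over 37 positions, and liver and brain r = 0.749. From HS-26, liver and brain had r = 0.326 over 19 positions. Liver from HS-26 was closer to liver from the Hba-a1 promoter, r = 0.901 over the same 19 positions, than to brain from its own viewpoint. It was nearly as close to brain from the Hba-a1 promoter, r = 0.868 over 18 positions. At 2 kb it was closer to that brain library (r = 0.961) than to liver from the Hba-a1 promoter (r = 0.843), so the order depended on the window.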

How the data were processed

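The authors deposited, per library, a normalized signal smoothed in 48 running windows of 2 to 49 kb in steps of 1000 bp, with a middle, a higher and a lower value. Window sizes were read from the unfilled ends of the columns, and per the file names the values are normalized medians. In the HS-26 libraries the 5 kb middle value was 1 close to the viewpoint, at 32150000 in liver and 32151000 in brain. Signals were therefore taken as relative to the viewpoint. High values were not confined to it, since full-template liver had 0.899 at 32.146 Mb at 2 kb, beyond 10 kb of the Hba-a1 promoter. Coordinates are mm9, per the submitters' processing notes. Alignment, filters and read numbers were not given in the sources used here. Without depth, counting intervals could not be made.

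The members and lists were chosen with earlier results of these data known. Named positions were the 5 elements, each library's highest and lowest position, local maxima at 2 kb (1.2 times the preceding minimum) and each comparison's largest ratio in either direction. Ratios used relative signal plus 0.1, and positions on grids that differ were matched within 500 bp. Positions under 1e-09 were empty. Python 3.11.15, numpy 2.4.6, pandas 2.3.3, scipy 1.17.1 and scikit-learn 1.9.0 were used, and the calculation was tested on simulated data.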

Additional observations from a re-analysis of the deposited data

How the results depend on the processing

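The liver excess over brain from the Hba-a1 promoter kept its direction under all 12 alternatives, from 0.75 (lower column) to 6.49 (scaling by the library median) on the log2 scale, against 1.54. Scaling by the median also gave 4.71 for full against 1/16 template liver and 37 positions 2-fold higher in liver than brain. The HS-26 difference, 0.43, rose to 1.67 with the median and 1.50 with the higher column, and reversed to −1.36 on the deposited scale and −0.73 with the lower column; its count of 5 became 3 at 2 kb and 0 on the deposited scale. Region over mirror side was 3.21 (log2) in liver with the higher column, 1.71 in the 1/16 template library with the lower column, and −0.032 in brain with the higher column. Element differences in log2 O/E reversed when windows moved 1 kb toward the globin genes, to 0.48 at HS-12 and −0.15 at HS-8 from the Hba-a1 promoter and 0.49 at HS-12 from HS-26; at a half-width of 2.5 kb HS-12 gave 0.11 seen from the promoter and 0.0077 seen from HS-26, and at 0.5 kb HS-8 gave −0.073 from the Hba-a1 promoter. The causes of these changes were not tested. Scaling over the range shared by all libraries and dropping empty positions were chosen after seeing the data. No replicate could be left out and no paired analysis was possible because every group has 1 library. The depth is unknown, so no limit from it can be given.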

Other observations

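In the 2 kb window some positions inside Nprl3 were empty, meaning that their middle value was under 1e-09. Full-template liver had 2 of 38, the 1/16 template library 7 of 37 and brain from the Hba-a1 promoter 7 of 37, and the last 2 libraries had the same positions empty. Both HS-26 libraries had 6 of 38 empty, again the same positions in both tissues. The positions at 32.133 and 32.164 Mb were empty in all 5 libraries, and none was empty at 5 kb. One of them lies within the HS-12 window and next to the step before HS-8.

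These shared empty positions move with a surprising likeness. At 2 kb the 1/16 template liver library correlated more with brain (r = 0.925 over 37 positions) than with full-template liver (r = 0.628). Without the positions empty in either library the order turned, with r = 0.628 over 30 positions for the 1/16 template library and brain and r = 0.850 for both liver libraries. The 1/16 template and brain profiles lie on the same grid, which is offset by 106 bp from that of full-template liver. Whether the grid, the template amount or the make-up of the library sets which positions are empty was not tested.

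Within 10 kb of HS-26, where no comparison was made, the relative signal of HS-31 was 29.9 in liver against 17.8 in brain, and that of HS-21 25.7 against 24.5. The signal at HS-26 itself was 189 in liver and 59.1 in brain relative to each library's mean.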
